A study of Homo sapiens with 9 samples.

Results

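The control culture of a knockdown study was described on its own, as a catalogue of which genes were expressed in MDA-MB-231 cells and at what level. Its members were the samples labelled as control (LUC), 3 of the 9 samples of the series, chosen by label and not by any measured value. MDA-MB-231 is an established human line of triple-negative breast cancer, that is, of a tumour without the estrogen receptor, the progesterone receptor or amplified HER2. The control cells carried a lentiviral shRNA against the luciferase of the firefly *Photinus pyralis*, a gene that human cells do not have, and had been selected as 1 stable culture with puromycin. Neither *ELOVL5* nor *IGFBP6* was knocked down in them. The 3 samples were RNA preparations that the paper describes as independently obtained. Whether the cells were grown separately for each is not stated. Their spread may thus hold differences of growth as well as of preparation and hybridisation, but not of other clones or donors.

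Total RNA was hybridised to Human Transcriptome Array 2.0 chips, and the level of a gene is given as its log2 intensity, so that each unit is a factor of 2. The values lay between 2.29 and 18.99, with a median of 5.02 over all transcript clusters, the probe groups that each stand for a transcribed locus. A background limit was set on each array at the 95th percentile of 364 olfactory receptor genes, which are silent in most tissues outside the nose. It was 5.61, 5.41 and 5.44 on control arrays 1, 2 and 3. Of 22468 genes with a symbol of their own, 11863 (52.8%) lay above the limit on all 3 arrays, 928 lay above it on some arrays only and 9677 on none. Of the 17086 protein-coding genes, the kind that most lists below hold, 10125 (59.3%) lay above it on all 3 arrays. A stricter limit from 156 genes of bitter taste receptors, keratin-associated proteins, cornified envelope proteins and beta-defensins, with a mean of 6.77, was passed by 8808 genes (39.2%). Counts of list members are to be read against these shares, and counts in the top 10% against 10% of all genes. Below, "above the limit" refers to the olfactory receptor limit, so that a gene above it with a mean under 6.77 may not have passed the stricter one. Some genes that set the stricter limit gave signal well over it, such as *TAS2R30* at 7.98 and the higher transcript cluster of *TAS2R14* at 9.13. The stricter limit may thus lie higher than background alone would put it. Intensities of different genes also depend on their probes, so an order between genes is an order of intensities and not of RNA molecules, and percentiles are given among all 22468 genes. In a bulk sample, fewer expressing cells and less RNA per cell cannot be told apart.

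**Figure D1:**
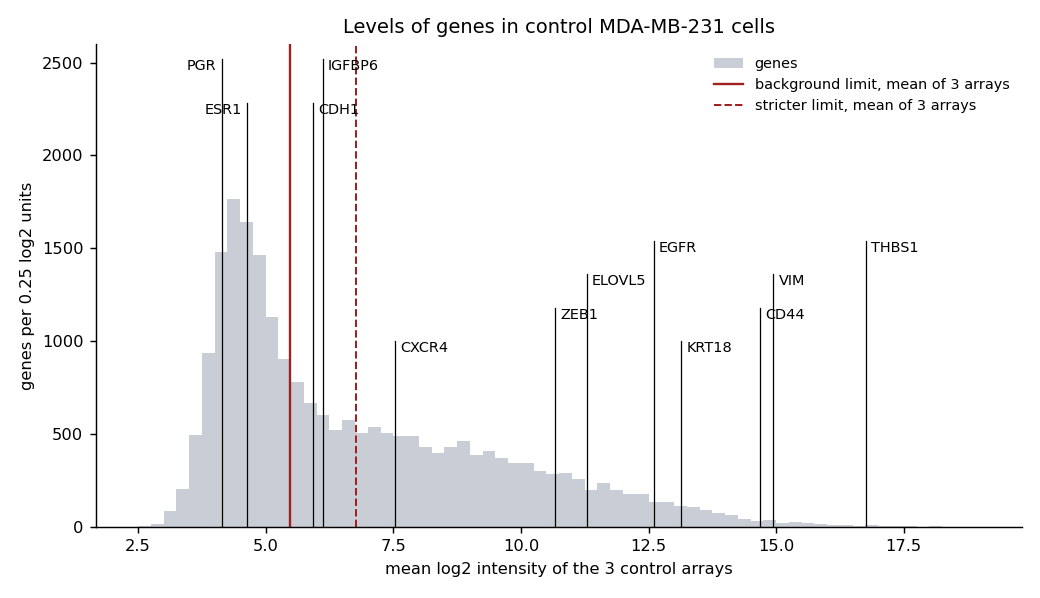
Distribution of gene levels in the control cells. Grey bars count genes by their mean log2 intensity over the 3 control arrays, red lines give both background limits averaged over the arrays (5.49 and 6.77), and black lines mark named genes. *ESR1* (4.64) and *PGR* (4.14) sit within the background peak, and *THBS1* (16.76) sits at the upper end.

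Breast epithelium holds luminal cells, which make hormone receptors and simple keratins, and basal cells, which make stratified keratins and contact the matrix. In epithelial-mesenchymal transition (EMT), transcription factors of the ZEB, SNAIL and TWIST families repress junction genes, and cells gain vimentin and motility. MDA-MB-231 is widely used as a line of mesenchymal appearance.

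All of the marker genes named for these cells were high. *VIM*, the intermediate filament protein vimentin, measured 14.97, 14.80 and 15.07 on control arrays 1 to 3 and ranked at percentile 99.4. *CD44*, the hyaluronan receptor, measured 14.85, 14.57 and 14.64 (percentile 99.2). *EGFR*, the receptor of epidermal growth factor, measured 12.55, 12.59 and 12.67 (percentile 96.1), and *KRT18*, a simple epithelial keratin, measured 13.16, 13.22 and 13.05 (percentile 97.4). The arrays differed by at most 0.28 for any of these genes, far less than the distance of the genes from the limit. *CD44* has a second transcript cluster, and the median of both was 12.57, so its exact level depends on the probes chosen while its place above the limit does not.

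The receptor genes that define the triple-negative class were at background as far as they were measured. *ESR1*, which encodes estrogen receptor alpha, measured 4.77, 4.57 and 4.57, and *PGR*, the progesterone receptor, measured 4.23, 4.10 and 4.08, with all arrays below the limit for both genes. The only transcript cluster of *ERBB2*, the HER2 gene, also bears the symbol of a microRNA, so no level of its own is given. Its neighbours on the HER2 amplicon were mixed, with 6 of 9 measured genes above the limit (66.7%, against 52.8% of all genes) and 1, *CDK12*, in the top 10% of all genes. *CDK12* has 2 transcript clusters, and the other one measured 5.45 on average, so that place rests on 1 cluster. *CDK12* measured 11.57 ± 0.15 (SD, n = 3) and *MED24* 8.92 ± 0.07, whereas *GRB7*, the closest partner of *ERBB2* in amplified tumours, measured 5.22 ± 0.09 and was not above the limit. *ERBB3*, a partner of HER2 in dimers, measured 5.78, 6.12 and 5.88, between both limits.

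Of 21 measured luminal genes 10 were above the limit (47.6%, against 52.8% of all genes and 59.3% of protein-coding genes). The zinc transporter *SLC39A6* was the highest at 12.97 ± 0.11, followed by the unfolded-protein factor *XBP1* at 9.19 ± 0.21. *GATA3*, a master factor of luminal cells, measured 7.29, 7.10 and 7.33, above both limits on every array, while its partner *FOXA1* measured 5.02 ± 0.07 and lay below the limit. None of 11 milk and mammary secretory genes was above the limit. Their levels ran from 3.81 for *MUCL1* to 5.06 for *LTF*, and the casein gene *CSN2* measured 4.24 ± 0.03.

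The keratin genes divided by type. Of the simple epithelial keratins 5 of 6 measured genes were above both limits, with *KRT8*, the partner of *KRT18* in the filament, at 13.19, 13.34 and 12.90, *KRT7* at 10.87 ± 0.27, *KRT19* at 10.53 ± 0.15 and *KRT80* at 9.95 ± 0.24. A second transcript cluster of *KRT8* measured 10.29 on average. *KRT20*, a keratin of the gut, was at 4.07 ± 0.03. Of the basal and stratified keratins 3 of 9 were above the limit and 0 were above the stricter one. *KRT5* measured 5.35, 5.07 and 5.12 and *KRT14* 4.53, 4.58 and 4.62, below the limit on all arrays. *KRT17*, *KRT6A* and *KRT6B* of the same list gave no level of their own, so nothing is known of them here. Keratin genes share sequence, so these values may include probes that bind more than 1 of them.

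Other genes of the basal list were high nonetheless, and 6 of 19 measured members were in the top 10% of all genes. Besides *CD44* and *EGFR* these were *MSN* (moesin, which ties actin to the membrane) at 15.52 ± 0.09, the laminin receptor chain *ITGA6* at 13.84 ± 0.08, *CAV1* (caveolin 1) at 13.17 ± 0.10 and the transcription factor *SOX9* at 11.63 ± 0.26. *SFRP1*, a Wnt antagonist of normal basal cells, measured 4.88 ± 0.01 and *SOX10* 4.83 ± 0.03, both below the limit.

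**Figure D2:**
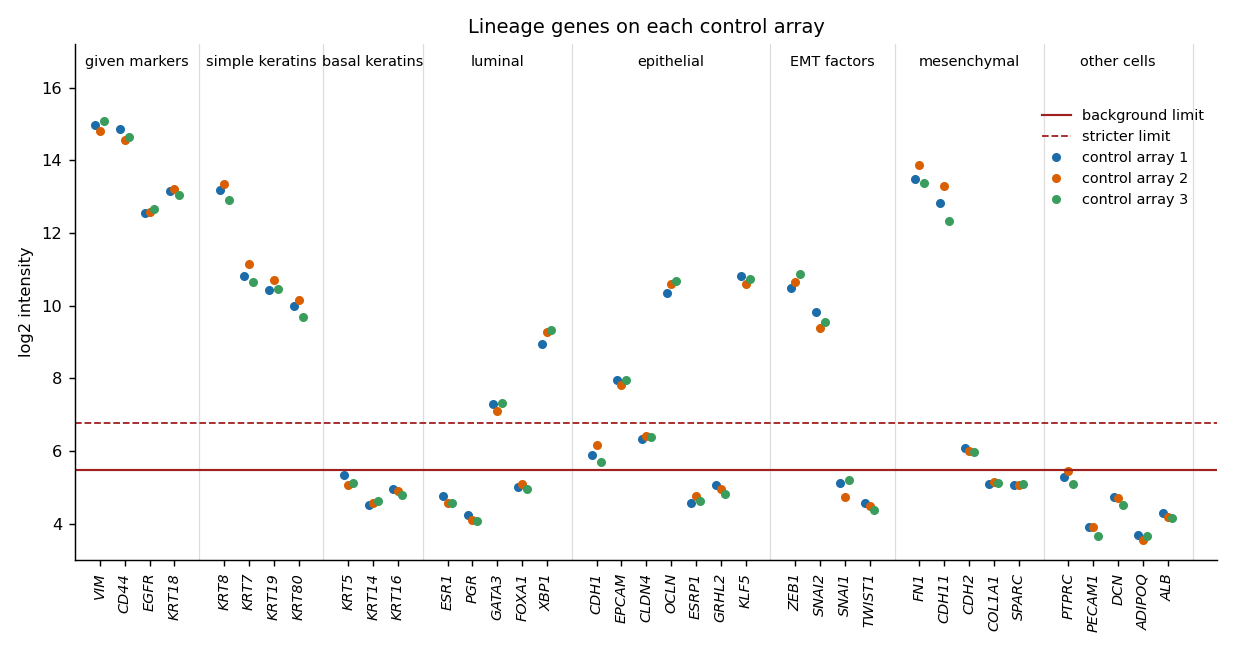
Lineage genes on each control array. Each point is 1 array (log2 intensity), genes are grouped by lineage, and red lines give both background limits averaged over the arrays. *VIM*, *CD44* and the 4 plotted simple keratins sit above 9.5, and *ESR1*, *PGR*, *KRT5* and *KRT14* sit below the limit on all 3 arrays.

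Epithelial junction genes were measured at low to moderate levels. Of 21 measured genes 14 were above the limit (66.7%, against 52.8% of all genes and 59.3% of protein-coding genes). The stricter limit, which 39.2% of all genes passed, was passed by 7, and 0 reached the top 10%. *CDH1*, which encodes E-cadherin, measured 5.90, 6.18 and 5.70, between both limits on every array. *EPCAM* measured 7.95, 7.83 and 7.97, and the tight junction protein genes *CLDN7*, *CLDN3* and *CLDN4* measured 7.30 ± 0.42, 6.43 ± 0.24 and 6.38 ± 0.04, the last 2 between both limits. *OCLN* (occludin) was the highest of the list at 10.34, 10.60 and 10.69.

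Regulators of the epithelial state were mostly at background, with 4 of 11 above the limit. *ESRP1*, a splicing factor of epithelial isoforms, measured 4.66 ± 0.10, and *GRHL2* and *OVOL2*, transcription factors that oppose EMT, measured 4.96 ± 0.13 and 5.08 ± 0.09. *KLF5* at 10.73 ± 0.11 and *EHF* at 8.08 ± 0.38 were above both limits, and *ESRP2* at 6.63 ± 0.09 and *GRHL1* at 5.95 ± 0.10 lay between them.

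Among the EMT transcription factors 3 of 12 were above the limit, and all of them were also above the stricter one. *ZEB1* measured 10.50, 10.65 and 10.86, *SNAI2* (SLUG) 9.83, 9.38 and 9.54, and the E protein gene *TCF3* 8.02 ± 0.18. *SNAI1* (5.02 ± 0.25), *TWIST1* (4.48 ± 0.09), *TWIST2* (3.81 ± 0.09) and *FOXC2* (3.71 ± 0.11) were not above the limit. *SNAI3* measured 5.27 and was not above it either, so of the SNAIL family only *SNAI2* was, and of the TWIST family none.

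Genes of mesenchymal structure were as uneven, with 14 of 27 above the limit (51.9%, near the 52.8% of all genes) and 5 in the top 10%. After *VIM* came *FN1* (fibronectin) at 13.48, 13.86 and 13.37, the myosin light chain gene *MYL9* at 13.18 ± 0.44 and *CDH11*, the mesenchymal cadherin, at 12.82, 13.29 and 12.32. *LOX* and *LOXL2*, which crosslink collagen, measured 11.08 ± 0.10 and 10.10 ± 0.19. N-cadherin (*CDH2*) measured 6.02 ± 0.06, between both limits like *CDH1*. Among the members not above the limit were *COL1A1* at 5.12 ± 0.03, *SPARC* at 5.08 ± 0.01, *PDGFRB* at 4.67 ± 0.06 and *POSTN* at 4.08 ± 0.02, whereas *TGFBI* measured 7.97 on average.

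The microRNAs of the miR-200 family target *ZEB1* and are repressed by it, and are a hallmark of epithelial cells, whereas miR-221 and miR-222 have been tied to basal-like breast cancer. Their genes were added after values of these arrays were known. Their mature sequences are shown because the seed, bases 2 to 8, given in capitals, sets which transcripts they recognise and sorts them into the groups compared here.
hsa-miR-200b-3p: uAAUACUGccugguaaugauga
hsa-miR-200c-3p: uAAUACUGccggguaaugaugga
hsa-miR-429: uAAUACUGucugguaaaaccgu
hsa-miR-200a-3p: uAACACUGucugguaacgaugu
hsa-miR-141-3p: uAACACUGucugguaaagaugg
hsa-miR-221-3p: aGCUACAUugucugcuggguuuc
hsa-miR-222-3p: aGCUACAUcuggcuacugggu

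The sequences come from RefSeq (GRCh38.p14), in which *MIR200A*, *MIR200B* and *MIR429* lie on chromosome 1, *MIR200C* and *MIR141* on chromosome 12 and *MIR221* and *MIR222* on chromosome X. None of the 5 miR-200 genes was above the limit, in either seed group. *MIR200B* measured 5.36, 5.21 and 5.11, *MIR200C* 4.78, 4.51 and 4.74 and *MIR429* 3.20, 3.05 and 3.23, and of the second seed *MIR200A* measured 3.10, 3.11 and 2.99 and *MIR141* 3.99, 3.67 and 3.75. *MIR221* measured 9.79, 9.94 and 10.42 and *MIR222* 8.91, 8.76 and 8.87, above both limits on every array. Among the 1040 measured genes that RefSeq classes as microRNA, 289 (27.8%) were above the limit. Probes to a hairpin gene in labelled total RNA do not measure the mature molecule, so these values concern the transcribed locus.

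Markers of other cell types were examined because the label of the extraction step speaks of frozen tumour tissue, while every other label names the cell line. Of 24 leukocyte genes 3 were above the limit, namely *CD68* (12.08 ± 0.25), *LAPTM5* (9.35 ± 0.29) and *LCP1* (9.35 ± 0.21). The pan-leukocyte gene *PTPRC* measured 5.29, 5.46 and 5.10, with array 2 alone above its limit, and *CD3E*, *CD14* and *CD163* measured 4.65 ± 0.03, 3.99 ± 0.13 and 4.66 ± 0.11. Of 12 endothelial genes 2 were above the limit (*ESAM* at 8.46 ± 0.20 and *KDR* at 6.01 ± 0.02, between both limits), with *PECAM1* at 3.83 ± 0.14. Of 12 fibroblast and pericyte genes 1 was above it (*RGS5* at 7.08 ± 0.05, with a median of 6.53 over its 2 clusters), with *DCN* at 4.66 ± 0.12. None of 8 adipocyte, 11 hepatocyte or 3 erythroid genes passed. Of 12 striated muscle genes 3 were above it, with *ACTA1* highest at 7.86, and of 9 neuronal genes 1, *SYT1* at 6.51. Most members of these lists were thus not above the limit. Some members of the leukocyte, endothelial, fibroblast and pericyte, and striated muscle lists were above both limits. Where the signal of those members came from was not tested. Of 6 melanocyte genes 1 was above the limit, the factor *MITF* at 10.89, 10.78 and 11.13, while the pigment cell genes *PMEL* and *TYR* measured 4.44 ± 0.02 and 3.94 ± 0.13.

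**Figure D3:**
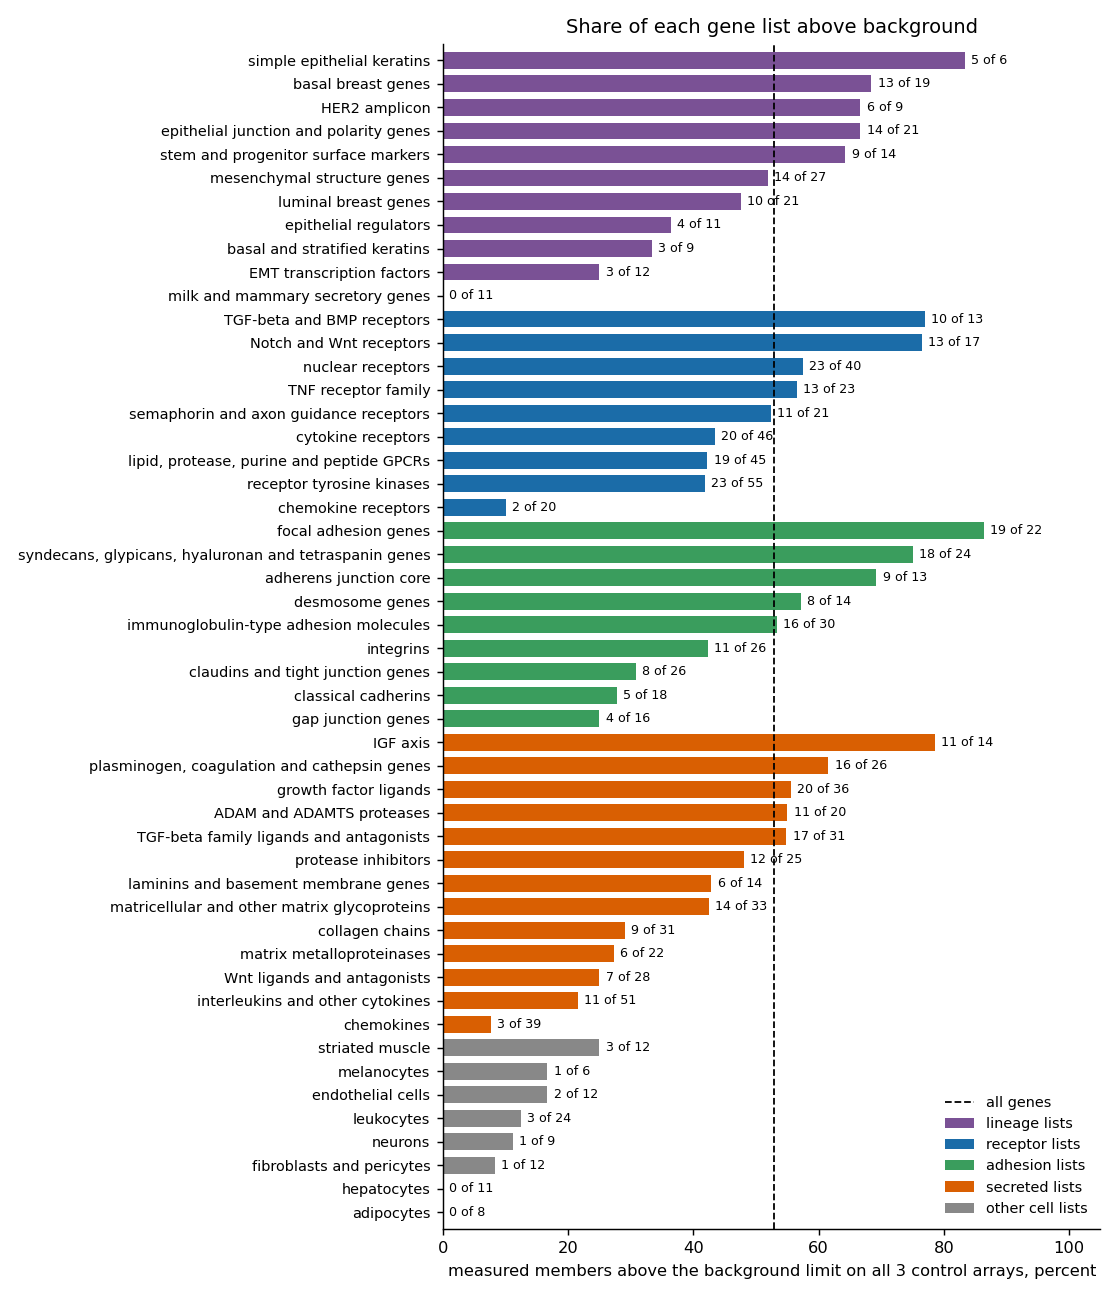
Share of measured members of each gene list above the background limit on all 3 control arrays (bars, percent, coloured by theme, with the counts beside them). The dashed line is the share over all genes, 52.8%. Focal adhesion genes (19 of 22) lie far to its right and chemokines (3 of 39) far to its left.

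Receptor tyrosine kinases read growth factors at the cell surface, and each cell uses a few of them. Of 55 measured members 23 were above the limit (41.8%, against 52.8% of all genes). The stricter limit, which 39.2% of all genes passed, was passed by 14, and 6 were in the top 10% of all genes. *AXL*, the receptor of GAS6, was the highest at 15.24, 15.31 and 15.53 (percentile 99.6). *MET*, the receptor of hepatocyte growth factor, measured 12.52, 12.45 and 12.85, next to *EGFR* in the order of intensities. *ROR1* and *RYK*, which bind Wnt proteins, followed at 11.83 ± 0.11 and 11.76 ± 0.04, then the ephrin receptor *EPHA2* at 11.20 ± 0.13 and *IGF1R* at 10.81 ± 0.25. At the other end *ROS1* (4.05 ± 0.01), *EPHA3* (4.15 ± 0.11), *PDGFRA* (4.22 ± 0.07) and *FLT3* (4.29 ± 0.05) were at background. The AXL ligand genes *GAS6* and *PROS1* measured 9.77 ± 0.17 and 9.85 ± 0.60, while the hepatocyte growth factor gene *HGF* measured 4.07 ± 0.03 and was not above the limit.

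Of 40 nuclear receptors 23 were above the limit (57.5%, against 52.8% of all genes and 59.3% of protein-coding genes) and 11 above the stricter one. Only 1 was in the top 10%, *NR1D2*, a repressor of the circadian clock, at 11.14 ± 0.08. The glucocorticoid receptor gene *NR3C1* measured 10.07 ± 0.15 and the orphan receptors *NR2C1* and *NR2C2* 10.14 ± 0.13 and 9.92 ± 0.08. *RXRG* (4.02 ± 0.04), *NR2E1* (4.03 ± 0.03) and *ESRRG* (4.05 ± 0.05) were at background, together with *ESR1* and *PGR*.

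Cytokine receptors combine chains that bind a ligand with shared signalling chains. Of 46 members 20 were above the limit (43.5%, against 52.8% of all genes). *IL6ST* (gp130, the common chain of the interleukin 6 family) measured 14.46, 14.43 and 14.33 and ranked at percentile 99.1, and its partner *OSMR* measured 12.38, 12.77 and 12.34. *LIFR* followed at 9.98 ± 0.14. *IL6R*, the chain that binds interleukin 6 itself, measured 4.76, 4.80 and 4.72 and lay below the limit on every array. The interferon receptor chain *IFNAR1* measured 11.77 ± 0.10 and the interleukin 13 receptor chain *IL13RA1* 11.76 ± 0.23. *IL13RA2*, *GHR*, *IL5RA* and *IL2RA* were at background with means from 4.01 to 4.26.

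Among the TGF-beta and BMP receptors 10 of 13 were above the limit, led by *TGFBR2* at 13.13, 13.38 and 12.63 and *BMPR2* at 12.43 ± 0.11. *TGFBR1* measured 10.63 ± 0.42. Of the TNF receptor family 13 of 23 were above the limit (56.5%, near the 52.8% of all genes). *TNFRSF21* (death receptor 6) at 12.89 ± 0.21 and *TNFRSF12A*, the receptor of TWEAK, at 11.93 ± 0.14 were in the top 10%. The TRAIL receptor genes *TNFRSF10A*, *TNFRSF10D* and *TNFRSF10B* lay close together at 9.09 ± 0.05, 8.87 ± 0.08 and 8.66 ± 0.21. Of 17 Notch and Wnt receptors 13 were above the limit, and *FZD6*, *NOTCH2* and the Wnt co-receptor *LRP6* were highest at 12.40 ± 0.10, 11.97 ± 0.09 and 11.53 ± 0.07.

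Chemokine receptors had few members above background, 2 of 20 above the limit (10.0%, against 52.8% of all genes). *CXCR4*, which guides cells towards CXCL12 and is studied in breast cancer metastasis, measured 7.74, 7.42 and 7.47 and was the only one above both limits. *CCR10* measured 6.08 ± 0.20 and lay between them, and *CCR1* was the lowest at 3.36 ± 0.09. Of 45 other G protein-coupled receptors 19 were above the limit (42.2%, against 52.8% of all genes), and 5 were in the top 10% of all genes. These were the adhesion receptors *ADGRE5* (12.86 ± 0.38) and *ADGRG6* (11.49 ± 0.22), the lysophosphatidic acid receptor *LPAR1* (12.21, 12.07 and 12.48), the protease-activated receptor gene *F2RL2* (11.26 ± 0.31) and the adenosine receptor *ADORA2B* (11.25 ± 0.04). *NRP1*, a co-receptor of semaphorins and VEGF, measured 12.59 ± 0.34 and led the axon guidance receptors. Of these 11 of 21 were above the limit (52.4%, near the 52.8% of all genes).

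Integrins are dimers of an alpha and a beta chain that hold cells to the matrix. Of their 26 genes 11 were above the limit (42.3%, against 52.8% of all genes). *ITGB1*, the most widely shared beta chain, measured 15.30, 15.40 and 15.32 on its main transcript cluster, although its 2 other clusters measured 3.43 and 6.14 on average. The alpha chains that pair with it for laminin and collagen were next, with *ITGA6* at 13.87, 13.75 and 13.91, *ITGA2* at 12.73, 13.22 and 12.35 and *ITGA3* at 12.59 ± 0.10, followed by *ITGAV* at 12.25 ± 0.25 and the fibronectin receptor chain *ITGA5* at 9.75 ± 0.30. Chains of leukocytes were low, with *ITGA4* at 4.26 ± 0.06 and *ITGAL* at 4.42 ± 0.04. *ITGB6*, a chain of epithelial cells, measured 4.44 ± 0.07.

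The machinery behind integrins was expressed almost in full. Of 22 focal adhesion genes 19 were above the limit and 8 in the top 10%, led by the actin crosslinkers *ACTN4* at 16.13 ± 0.04 and *ACTN1* at 14.86 ± 0.14, then *CAV1*, *VCL* (vinculin, 12.95 ± 0.20), *PARVA* (12.57 ± 0.07) and *ILK* (12.28 ± 0.26). *TNS1* (4.64 ± 0.06), *FERMT3* (4.82 ± 0.09) and *PARVB* (4.96 ± 0.10) were not above the limit, while *FERMT2*, the relative of *FERMT3* outside blood cells, measured 11.78 ± 0.05.

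Of 18 classical cadherins 5 were above the limit and only *CDH11* and *CDH24* (6.98 ± 0.09) were above the stricter one. The catenins that cadherins need were present nonetheless, with *CTNNA1* at 12.39 ± 0.15 and *CTNNB1* at 11.05 ± 0.25. Desmosomes, the spot junctions of epithelia and heart, were represented by 8 of 14 genes (57.1%, near the 52.8% of all genes). Of the 8 genes 3 were in the top 10%. These were *PKP2* at 12.48, 12.36 and 12.78, *DSG2* at 12.02, 12.34 and 12.36 and *DSP* (desmoplakin) at 11.81, 12.35 and 12.16. The isoforms of stratified skin, *DSG1* (3.97 ± 0.06), *DSG3* (4.33 ± 0.07), *DSC1* (4.31 ± 0.05) and *DSC3* (4.12 ± 0.04), were at background. Of the claudin and tight junction genes 8 of 26 were above the limit, with the scaffold gene *TJP1* at 12.84 ± 0.10 and *CLDN1* at 9.23, 9.80 and 10.52, one of the more variable genes between arrays.

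Among immunoglobulin-type adhesion molecules 16 of 30 were above the limit (53.3%, near the 52.8% of all genes). *ALCAM* (12.67 ± 0.22), *BSG* (basigin, an inducer of metalloproteinases, 12.41 ± 0.04) and *CD47*, the signal against phagocytosis (11.23 ± 0.21), were highest. *CD274*, which encodes PD-L1, measured 9.40, 9.92 and 10.58. The T cell ligand genes *CD80* and *CD86* measured 4.05 ± 0.04 and 3.81 ± 0.06. Syndecans, glypicans, hyaluronan and tetraspanin genes were above the limit in 18 of 24 cases. Besides the hyaluronan receptor gene *CD44* these included the tetraspanin *CD9* at 14.66 ± 0.03, *SDC4* at 13.48 ± 0.15 and the hyaluronan synthase *HAS2* at 12.86, 12.49 and 13.23. Of the stem and progenitor surface markers 9 of 14 were above the limit. *CD24*, often used with *CD44* to sort breast cancer cells, measured 8.33 ± 0.25, and *NT5E* (CD73) measured 14.34 ± 0.11, whereas *ALDH1A1* and *PROM1* measured 4.14 ± 0.06 and 4.33 ± 0.06.

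The secreted products were examined by family. Chemokines had the lowest share above the limit of all secreted families, 3 of 39 (7.69%, against 52.8% of all genes). *CCL28* measured 7.50 ± 0.20, *CXCL8* (interleukin 8) 6.40, 7.10 and 7.21, and *CXCL16* 6.20 ± 0.08, and of these only *CCL28* was above the stricter limit on all arrays. *CXCL1* (5.01 ± 0.13), *CCL5* (4.87 ± 0.09) and *CCL2* (4.09 ± 0.16) were at background. Of 51 interleukins and other cytokines 11 were above the limit. *IL18* measured 10.85, 10.79 and 11.45, *MIF* 10.80 ± 0.01, the macrophage factor *CSF1* 10.43 ± 0.40 and *LIF* 8.14 ± 0.28. *IL6* measured 7.15 ± 0.15, above both limits on every array.

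Growth factor ligands were above the limit in 20 of 36 cases (55.6%, near the 52.8% of all genes). *NRG1* (neuregulin, a ligand of ERBB3 and ERBB4) was highest at 11.48, 11.31 and 11.71, though the median of its transcript clusters was 10.05. *PDGFC* (11.19 ± 0.11), the EGFR ligand *HBEGF* (11.02 ± 0.58), *VEGFC* (10.91 ± 0.22), *FGF5* (10.52 ± 0.77) and *VEGFA* (9.98 ± 0.35) followed, and *FGF7* and *ANGPT2* were at background (4.30 ± 0.07 and 4.17 ± 0.03). Of the TGF-beta family ligands and antagonists 17 of 31 were above the limit (54.8%, also near the share of all genes) and 5 in the top 10%. They held ligands and their traps together. *TGFB2* measured 13.67, 13.85 and 13.72, *BMP4* 12.41 ± 0.40 and the activin chain *INHBB* 11.83 ± 0.25, whereas follistatin (*FST*), which binds activins, measured 13.73, 12.32 and 12.54 and the BMP antagonist *NOG* 11.42 ± 0.09. In the Wnt list *DKK1*, a secreted inhibitor of LRP5 and LRP6, measured 14.63, 14.61 and 14.86 (percentile 99.3), while 7 of 28 genes were above the limit, which 52.8% of all genes passed, and *DKK1* alone above the stricter one. The highest Wnt ligand, *WNT9A*, measured 6.45 ± 0.04.

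Insulin-like growth factors act through IGF1R and are held by a family of binding proteins, to which one of the genes knocked down elsewhere in the study belongs. Of 14 measured genes of the axis 11 were above the limit. *IGFBP7* measured 15.35, 15.39 and 15.28 (percentile 99.6) and *IGFBP4* 12.94, 13.03 and 12.35. *IGFBP6* itself measured 6.13, 6.21 and 6.03 (percentile 53.1), between both limits on all arrays. *IGF1* (4.72 ± 0.08), *IGFBP2* (5.36 ± 0.11) and *IGFBP5* (4.23 ± 0.16) were at background. The other gene of the study, *ELOVL5*, which elongates polyunsaturated fatty acids, measured 11.25, 11.26 and 11.36 (percentile 91.6). It ranked 3 among 13 elongases and desaturases after *SCD*, the desaturase that makes oleic acid (14.03, 13.99 and 12.71), and *DEGS1* (12.06 ± 0.15), and *ELOVL6* followed at 10.85 ± 0.16. *ELOVL2*, *ELOVL3* and *ELOVL4* were not above the limit (4.83 ± 0.16, 3.84 ± 0.01 and 4.64 ± 0.15). The reference genes that the study used for PCR measured 17.43, 17.33 and 17.35 for *EEF1A1* and 13.14, 13.29 and 13.37 for *HUWE1*.

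Matrix metalloproteinases (MMP) cut the proteins around the cell. Of 22 MMP genes 6 were above the limit, and *MMP14*, which is anchored in the membrane, measured 11.22, 11.84 and 11.68 and *MMP1* (interstitial collagenase) 9.92, 9.59 and 10.01. No other MMP gene was above the stricter limit, and *MMP9*, a gelatinase, measured 5.07 ± 0.07. Of 20 ADAM and ADAMTS genes 11 were above the limit (55.0%, near the 52.8% of all genes), with the sheddases *ADAM9* at 14.54 ± 0.12, *ADAM10* at 12.20 ± 0.16 and *ADAM17* at 10.79 ± 0.18. In the plasminogen, coagulation and cathepsin list 16 of 26 were above the limit (61.5%). *F3*, which encodes tissue factor, the starter of coagulation, measured 15.04, 14.89 and 15.10 (percentile 99.5), and its inhibitor *TFPI* measured 12.45 ± 0.21. The urokinase receptor *PLAUR* measured 12.15, 11.96 and 12.36 and urokinase (*PLAU*) 10.09, 9.85 and 9.20. The lysosomal proteases *CTSD* and *CTSC* measured 14.97 ± 0.34 and 13.08 ± 0.25. Of 25 protease inhibitors 12 were above the limit (48.0%), with *TIMP3* at 13.16, 13.44 and 12.38 and *TIMP1* at 7.22, 7.27 and 7.29.

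Matrix genes were led by a few very bright members. *THBS1* (thrombospondin 1) measured 16.75, 16.78 and 16.76 and ranked 20 among all genes from the top. Serglycin (*SRGN*, 14.21 ± 0.22), *EDIL3* (13.92 ± 0.31) and *CCN1* (13.66 ± 0.29) followed, and of 33 matricellular and other glycoproteins 14 were above the limit (42.4%, against 52.8% of all genes), 7 of them in the top 10%. Collagen chains were above the limit in 9 of 31 cases (29.0%), with *COL8A1* at 11.31 ± 0.46 and *COL12A1* at 11.13 ± 0.17 ahead of *COL13A1* at 7.93 ± 0.18. *COL10A1* and *COL14A1* measured 3.92 ± 0.12 and 4.05 ± 0.05. Of 14 laminin and basement membrane genes 6 were above the limit (42.9%), with *NTN4*, *LAMC1* and *LAMB1* at 12.93 ± 0.14, 11.80 ± 0.16 and 10.38 ± 0.12, whereas the nidogens *NID1* and *NID2* measured 4.19 ± 0.09 and 4.37 ± 0.05.

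Genes of mitosis were uniformly high. All 19 measured mitosis genes lay in the top 10%, with a median level of 13.11, from *CCNB2* at 10.94 ± 0.15 to *MKI67*, the proliferation marker Ki-67, at 15.68, 15.43 and 15.61. All 19 replication genes were above the limit and 11 were in the top 10%, with *TYMS* at 13.82 ± 0.09 and *CDT1* lowest at 7.14 ± 0.15. All 23 measured genes of the RAS and MAPK pathway were above both limits, although only 5 were in the top 10%. Among them were genes that ERK signalling induces and that restrain it, *PHLDA1* (13.03 ± 0.07), *DUSP6* (12.85 ± 0.35), *SPRY2* (11.11 ± 0.03) and *SPRED1* (11.04 ± 0.26). Of 19 genes of glycolysis 18 were above the limit, and *GAPDH*, *ENO1* and *PKM* measured 16.81 ± 0.02, 15.78 ± 0.12 and 14.61 ± 0.07.

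The 20 brightest genes held small structural RNAs, genes of the cytoskeleton and of translation, microRNA genes of a repeated family and pseudogenes. *RN7SL1*, the RNA of the signal recognition particle, led with 18.83 ± 0.02, followed by *RN7SK* at 18.13 ± 0.07. *MIR548D1* (18.01) and *MIR548AD* (17.50), *YWHAZP3*, *RNY3P1* and *RNY3* have near-identical copies in the genome, so their levels cannot be assigned to 1 locus, and the small nucleolar RNA *SNORD13* measured 17.80. The highest protein-coding genes with 1 cluster were *ACTG1* (17.54 ± 0.12), *EEF1A1* and *TUBA1B* (17.32 ± 0.09). *SLC44A4* stood among them at 17.66, but on 1 of its 8 transcript clusters, and the median of these was 4.97, so its place rests on that cluster alone. The tubulin *TUBB* (17.03, with a median of 15.50 over its 8 clusters), the poly(A)-binding *PABPC1* (16.89) and the ribosomal *RPS15* (16.79) were also among the 20. Of protein-coding genes in none of the lists, the metallothionein *MT2A* (16.76, 16.65 and 17.12), the histone genes *H2BC12* (16.83 ± 0.10) and *H1-4* (16.29 ± 0.02), the membrane-binding *ANXA2* (16.78 ± 0.03), the chaperone *CALR* (16.57 ± 0.07) and *ANKRD1*, a target of YAP signalling (16.70, 16.55 and 16.46), were among the highest. Histone genes and *ANXA2* have close copies, and *ANXA2P2* itself measured 16.67 ± 0.02, so their signal cannot be assigned to 1 copy. A total of 44 genes had means above 16, which a 16-bit scanner cannot record, and their order holds on the processed scale of the authors only.

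MDA-MB-231 is known to have lost the cell cycle inhibitor gene *CDKN2A*, and the genes around it on chromosome 9 were therefore read in order. *CDKN2A* measured 4.67, 4.61 and 4.65, *CDKN2B* 4.08, 4.07 and 3.96 and *MTAP*, a gene of methionine salvage that most cells use, 5.06, 4.86 and 4.65. They lay in a run of 31 measured genes in which no gene was above the limit on all 3 arrays, from *MIR491* to *TUSC1*. Of these, 25 are protein-coding, 16 of them interferon genes, most of which are silent in unstimulated cells anyway. The other 9 were *HACD4* (below the limit on all arrays), *KLHL9* (4.16 ± 0.03), *MTAP*, *CDKN2A*, *CDKN2B*, *DMRTA1* (4.29 ± 0.16), *ELAVL2* (3.91 ± 0.03), *IZUMO3* (3.97 ± 0.07) and *TUSC1*, which measured 5.90, 5.34 and 5.12 and was above the limit on array 1 alone. Beyond the run on one side, *LINC03106* measured 7.40 ± 0.02, *CAAP1* 9.26 ± 0.10 and *PLAA* 10.88 ± 0.09. Farther out on that side the genes from *LRRC19* to *IFNK* were again not above the limit, with means from 3.33 to 5.08. On the other side *FOCAD* measured 6.03 ± 0.02, between both limits, and *MLLT3* 8.08 ± 0.20, while *MIR4473*, *MIR4474* and *SLC24A2* near them were not above the limit. Of 4579 such runs on the autosomes and the X chromosome 6 held 31 genes or more, and olfactory receptor genes, immune receptor segments or imprinted small RNAs filled several of these. Whether DNA was lost was not measured.

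**Figure D4:**
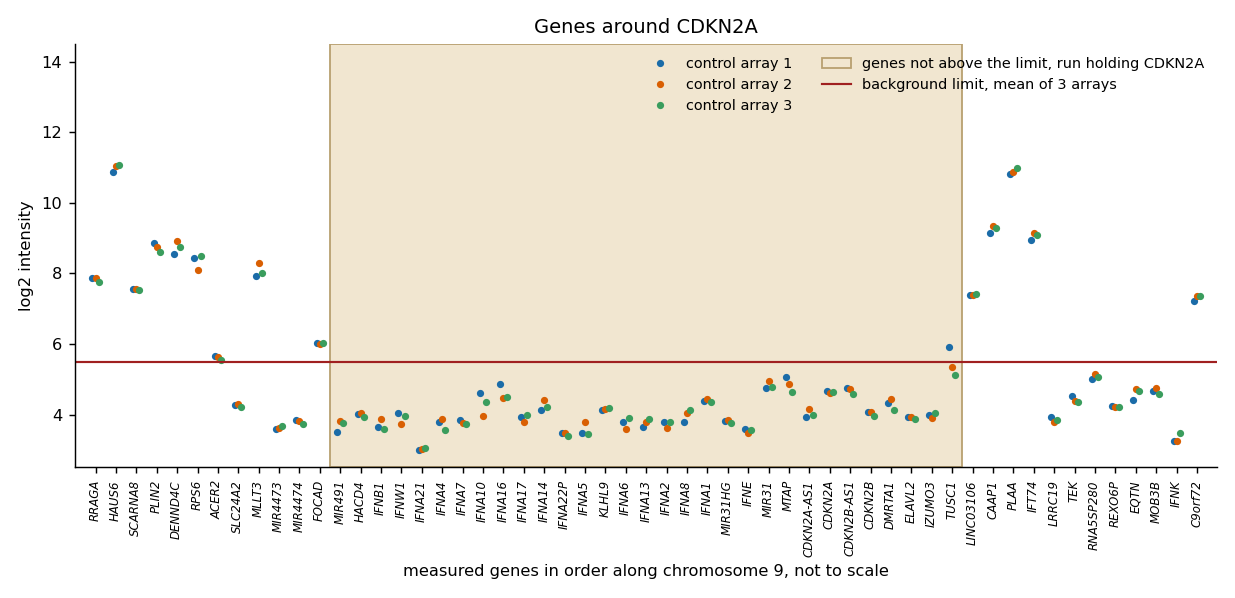
Levels of the measured genes around *CDKN2A* in their order along chromosome 9 (points, log2 intensity, 1 colour per control array). The shaded run of 31 genes stays at or under the background limit (red line) except for 1 array of *TUSC1*, and *CAAP1* and *PLAA* beyond it lie at 9.26 and 10.88.

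Promoters of widely used genes tend to be rich in CpG, and a TATA box marks many genes that are strongly induced. Promoter sequences of RefSeq (GRCh38.p14), 250 bases before to 50 after the start, were matched to 10186 protein-coding genes with 1 listed start, and the motif TATAAA was searched on the strand of the gene from 40 to 15 bases before the start. Promoters of the 6047 genes above the limit held a median of 27 CpG, against 8 in the 4139 genes not above it. The CpG count rose through the low bands and then stayed level, with a mean of 10.7 in percentiles 0 to 20, 16.1 in 20 to 45, 24.5 in 45 to 60 and 28.8 in the highest 2 percentiles. The motif took the opposite course at first, in 10.0% of promoters in percentiles 0 to 20, 1.66% in 60 to 75 and 1.21% in 90 to 98. In the highest 2 percentiles it was present in 14 of 238 promoters (5.88%), against 4.29% of all of these genes and 2.29% of all 34961 listed promoters. The 14 genes included *MT2A*, *ANXA2*, *CALR*, *H1-4*, *EEF2*, *DKK1* and *TGFB2*. These shares are descriptions, a match of the letters is not a site of use, and the start that the cells use was not measured.

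The last 60 bases before the start are shown for 3 of these genes, with the motif in capitals, and for *CSN2*, which holds the same motif while its level of 4.24 was not above the limit.
MT2A: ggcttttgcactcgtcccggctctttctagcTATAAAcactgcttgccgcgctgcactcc
DKK1: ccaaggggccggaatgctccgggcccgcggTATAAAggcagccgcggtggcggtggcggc
TGFB2: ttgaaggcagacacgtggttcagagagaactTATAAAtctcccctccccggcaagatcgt
CSN2: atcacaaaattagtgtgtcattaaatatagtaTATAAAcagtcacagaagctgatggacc

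They lie at chr16:56608524-56608583 (plus strand), chr10:52314221-52314280 (plus strand), chr1:218345276-218345335 (plus strand) and chr4:69965729-69965788 (minus strand). The 300 bases around the start held 37 CpG in *MT2A*, 20 in *DKK1*, 14 in *TGFB2* and 2 in *CSN2*, so genes that share the motif ranged widely in CpG content. For the CpG-rich kind, *F3* and *EGFR* are shown beside *ALB*, the albumin gene, whose level was 4.22 ± 0.07, with each CpG in capitals.
F3: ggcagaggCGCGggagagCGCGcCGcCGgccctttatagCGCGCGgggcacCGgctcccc
EGFR: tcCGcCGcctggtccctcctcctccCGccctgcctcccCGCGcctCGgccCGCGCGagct
ALB: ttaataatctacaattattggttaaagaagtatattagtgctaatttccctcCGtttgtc

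They lie at chr1:94541760-94541819 (minus strand), chr7:55018957-55019016 (plus strand, the first of 2 listed starts) and chr4:73404227-73404286 (plus strand). The printed 60 bases hold 10 CpG in *F3*, 9 in *EGFR* and 1 in *ALB*, and the 300 bases 38, 33 and 4.

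The 3 control arrays were close to each other. Across genes their values correlated at r = 0.997, 0.997 and 0.996 for the 3 pairs, which share normalization and probe effects, and the median absolute difference of a pair was between 0.11 and 0.13. The median SD was 0.13 for genes above the limit and 0.09 for the others, and it was highest, 0.14, for genes with means from 8 to 10. Of genes above the limit 118 (0.995%) spanned at least 1 log2 unit between arrays. In these 118 genes array 3 was the lowest in 65 and array 2 the highest in 59.

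*GBP2*, a guanylate-binding protein induced by interferon, measured 9.16, 10.45 and 8.42 on arrays 1, 2 and 3. *PTGES* (prostaglandin E synthase) measured 8.93, 9.82 and 7.81, *SOX4* 8.64, 9.44 and 7.52 and the Wnt receptor partner *LGR5* 6.96, 7.73 and 5.86. *HLA-DRA*, the alpha chain of HLA-DR, measured 6.49, 7.80 and 6.01, so that it lay above the stricter limit on array 2 only. *INSIG1*, a sensor protein of sterol synthesis, measured 9.60, 9.22 and 7.78, and *RAB27B*, a GTPase of vesicle secretion, 11.74, 11.53 and 9.95. *LTBP1*, *F13A1*, *CA12*, *ITGA1*, *SLC37A2*, *TCP11L2* and *IGHD3-3* were also lowest on array 3. *INSYN2B* ran the other way with 8.96, 8.72 and 10.42, as did *SLC7A11*, the cystine transporter, with 12.34, 11.90 and 13.29.

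Lists, those of sterol, interferon, hypoxia and AP-1 genes drawn up after these ranges had been seen, were read across arrays, so that their direction is a description only. Over all genes above the limit arrays 1, 2 and 3 were the lowest in 36.9%, 33.9% and 29.2% and the highest in 28.4%, 32.3% and 39.2%. Of 16 genes of sterol and fatty acid synthesis above the limit array 3 was the lowest in 14 and array 1 the highest in 12, and of 16 such interferon-inducible genes it was the lowest in 13 and array 2 the highest in 12. Of 13 hypoxia-inducible genes array 2 was the highest in 10, among them *DDIT4* (7.95, 8.91 and 7.44) and *NDRG1* (8.21, 8.81 and 7.40). In 12 HLA class I and peptide loading genes array 2 was the highest in 11, and the median deviation of array 2 from the gene mean was 0.21. Of 19 replication genes array 1 was the highest in 13 and array 3 the lowest in 13, the same order as in the sterol list, with median deviations of 0.13 and -0.12 from the gene mean. Array 2 was the lowest in 14 of 19 mitosis genes, with a median deviation of -0.08, and array 3 the highest in 12. In 24 cytosolic ribosomal protein genes array 2 was the lowest in 20 and array 3 the highest in 16, with median deviations of -0.105 and 0.087. Of 11 immediate early and AP-1 genes above the limit arrays 1, 2 and 3 were the lowest in 4, 4 and 3 and the highest in 1, 5 and 5. Genes of such lists are regulated together and are not independent of each other. The cause of these differences between RNA preparations of the control cells was not tested.

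**Figure D5:**
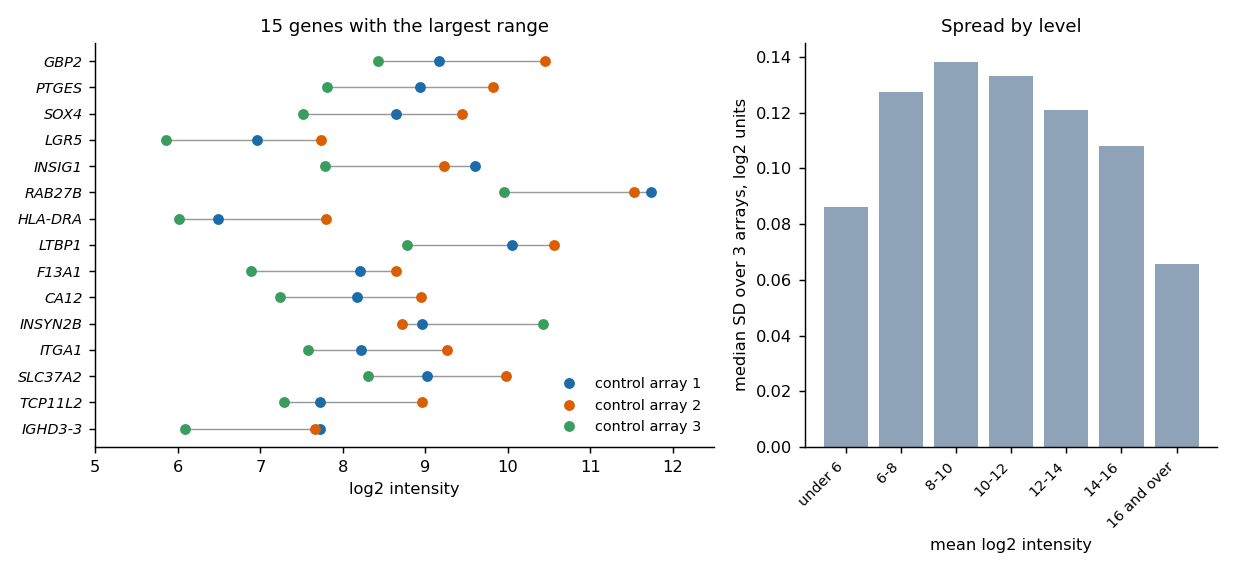
Spread between the control arrays. Left, the 15 genes above the limit with the largest range (points, log2 intensity on each array, joined by a line), in most of which array 3 is lowest. Right, the median SD over the 3 arrays by band of mean level, which is largest (0.14) between 8 and 10 and smallest (0.07) at 16 and over.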

How the data were processed

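Total RNA of the 3 control samples (LUC) was measured on Human Transcriptome Array 2.0 chips. The authors ran RMA (background correction, normalization between all 9 arrays and summary of probes) in Transcriptome Analysis Console 4.0.0.25 and deposited 1 log2 intensity for each transcript cluster and array. The options of RMA are not given in the sources used here. The other 6 arrays were not used. Of 67528 transcript clusters 23784 carried 1 gene symbol in GEO's platform annotation, 1540 several and 42204 none. For the 479 genes with several clusters the one with the highest control mean was taken. RMA fits probe effects within a cluster, so it does not put different genes on 1 scale, and near-identical copies share probes.

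The background limit was the 95th percentile of olfactory receptor genes on each array, and 15 of these 364 genes lay above it on all arrays. A gene counted as above the limit when all 3 arrays exceeded it. There was 1 group, so no difference was tested. Mean, SD, rank and percentile were computed in Python 3.11.15 with pandas 2.3.3 and numpy 2.4.6. The call above the limit was tested on simulated data, and the percentile function on a short set of known values. The number of arrays limits the precision. The samples are RNA preparations, and nothing in the labels says that they came from separate cultures.

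Genes to name were taken from the marker genes, the genes of the study, the 20 highest genes, up to 6 highest and 4 lowest members of each of 61 lists, the genes around *CDKN2A*, the 15 genes with the largest range and the 20 highest protein-coding genes in no list, of which the text gives a selection. The members and lists were chosen with earlier results of these data known. The lists read across arrays, the microRNA genes and other genes outside this rule, such as *IL6R*, *CXCL1*, *CCL2*, *MMP9*, *TIMP1*, *PLAU*, *IL6*, *SPARC*, *CD24*, *ERBB3*, *GAS6*, *SLC7A11* and *NDRG1*, were chosen after their values were seen. Alternatives changed the limit, the background genes, the choice of cluster, the normalization and the arrays used.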

Additional observations from a re-analysis of the deposited data

Results flagged for a closer look

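Transcript clusters with no gene symbol are outside the lists and ranks above, and 11974 of 42204 (28.4%) lay above the background limit on all 3 control arrays, which was the signal in unused data that called for a second look. Of these, 6448 were also above the stricter limit. They could not be named here, and what they measure was not tested.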

How the results depend on the processing

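The number of genes above the limit was 11863 and ranged from 8808 with the other background genes to 13941 with the 90th percentile, and from 11898 to 12212 when 1 array was left out. Of 61 lists, the count above the limit moved by more than 1.5 times in 25 with the other background genes, in 14 with the 90th and in 14 with the 99th percentile, in 6 with a fixed limit of 6, in 3 with single-cluster genes and in 1 without control array 1. The level of *CD44* was 12.57 with the median over its clusters in place of 14.69. The percentiles of 10 checked genes shifted by -6.74 to 0.03 when ranked over protein-coding genes only. Ranked over all transcript clusters, they shifted by -0.05 to 15.3. Of all genes 150 spanned at least 1 log2 unit, but 36 to 92 did when 1 array was left out (92 without array 1, 65 without array 2 and 36 without array 3), since fewer arrays give a smaller range. No paired analysis was possible because there was 1 group and no test. Genes between both limits, such as *CDH1*, *CDH2* and *IGFBP6*, are the calls that the choice of background genes decides.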
